A study of Homo sapiens with 34 samples.

Results

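The clustered histone genes are the protein-coding genes on chromosomes 1 and 6 whose GENCODE 44 symbols begin with H2AC, H2BC, H3C, H4C or H1-. The rule found 68 of 19970 protein-coding genes, 13 on chromosome 1 and 55 on chromosome 6. They comprised 6 genes for the linker histone H1, 17 for H2A, 18 for H2B, 13 for H3 and 14 for H4. A member was counted as bound in a peak list if the summit of a peak, its point of highest signal, lay within 1 kb of the transcription start site (TSS). The rule itself uses no measured value.

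Binding of RBPJ and SOX2 had been mapped by ChIP-seq, the sequencing of DNA that is precipitated with a protein, in MB157, a NOTCH1-driven triple-negative breast cancer (TNBC) cell line, and in MB157R. MB157R was derived from MB157 by culture for 25 weeks in 1 µM LY3039478, a γ-secretase inhibitor (GSI), which blocks release of the NOTCH intracellular domain. All cells carried a doxycycline-inducible lentiviral vector and had received 1 µg/ml doxycycline for 72 h. In MB157 the vector was either empty (iEV) or carried an HA-tagged SOX2 (iSOX2), and in MB157R it was empty (iEV) or encoded HA-tagged NOTCH1 lacking its extracellular domain, called N1-ICD (iN1-ICD). RBPJ, the DNA-binding partner of the NOTCH intracellular domain, was precipitated in all of them, SOX2 in both MB157R groups, and the HA tag in MB157 iSOX2 (here HA-SOX2) and, as a control, in MB157 iEV. Of 34 libraries, 22 were immunoprecipitations (8 groups) and 12 were inputs (4 groups). Each immunoprecipitation group held 3 libraries except the HA control with 1. Peaks had been called once per group on pooled libraries, so that each condition is represented by 1 list, there is no spread between replicates to set a difference against, and no test of a difference between conditions was possible. All values below are descriptions, and their intervals are 95% intervals of counting error alone. Peak lists hold no expression values, so the identity of the cells was not checked against marker genes.

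For RBPJ the list of MB157 iEV held 25243 peaks, that of MB157 iSOX2 34521, that of MB157R iEV 46601 and that of MB157R iN1-ICD 37297. Where several RBPJ values follow each other without a name, they stand in this order. The SOX2 lists held 37963 peaks (MB157R iEV) and 323 (MB157R iN1-ICD), the HA-SOX2 list 108203, and the HA control 77. Fold enrichment is the authors' ratio of the signal at the summit to the local background in the inputs. It rests on few fragments: the whole number of fragments at a summit, recovered from the deposited values, had a median of 12 to 19.5 at the members' summits of the 6 long lists (all but the SOX2 list of MB157R iN1-ICD and the HA control). The same median over all summits was 15 to 23.

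Histone genes of this kind supply the bulk of new nucleosomes. They are transcribed in S phase, when DNA is copied, at nuclear bodies organised around NPAT, and their mRNAs end in a stem-loop bound by SLBP rather than in a poly(A) tail. H2A and H2B genes often lie head to head and share 1 short promoter, in which an octamer element read by OCT1 (POU2F1) and CCAAT boxes read by NF-Y are well known, while H4 promoters are known for an element read by HINFP. Several chromosome 1 genes are near-identical copies.

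The promoters that the results turn on are printed from the hg38 reference, 5′ to 3′, with matches of the searched motifs in capitals, in either direction. The words searched were GTGGGAA or GTGAGAA (RBPJ), AACAAAG or AACAATG (SOX), ATGCAAA (octamer), CCAAT (read by NF-Y), TATAAA (a core promoter box), and TGACTCA or TGAGTCA (AP-1), on both strands. The sequence shared by H2AC8 and H2BC8 (chr6:26216689-26216920, 232 bases, read toward H2AC8) had a summit within 1 kb of both starts in all 6 long lists. The one shared by H2AC14 and H2BC14 (chr6:27814778-27815021, 244 bases, read toward H2BC14) belongs to the pair with the highest HA-SOX2 fold. H2AC25 and H2BC26 (chr1:228457874-228458102, 229 bases, read toward H2BC26) form the isolated chromosome 1 pair, which was called for RBPJ and HA-SOX2 in MB157 and in no list of MB157R. H2AC1 and H2BC1 (chr6:25726563-25726776, 214 bases, read toward H2BC1), a pair known from testis, had no summit. These 4 stretches lie between the start sites of their pair.
H2AC8 and H2BC8: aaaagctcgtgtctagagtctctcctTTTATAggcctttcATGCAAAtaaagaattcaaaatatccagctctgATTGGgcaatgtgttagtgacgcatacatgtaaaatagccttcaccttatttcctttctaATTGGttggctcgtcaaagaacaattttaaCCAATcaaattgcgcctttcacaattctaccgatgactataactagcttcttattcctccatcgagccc
H2AC14 and H2BC14: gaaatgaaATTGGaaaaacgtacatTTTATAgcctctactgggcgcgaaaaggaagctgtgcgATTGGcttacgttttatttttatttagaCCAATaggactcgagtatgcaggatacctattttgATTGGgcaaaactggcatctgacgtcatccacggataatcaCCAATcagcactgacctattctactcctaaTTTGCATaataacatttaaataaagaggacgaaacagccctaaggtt
H2AC25 and H2BC26: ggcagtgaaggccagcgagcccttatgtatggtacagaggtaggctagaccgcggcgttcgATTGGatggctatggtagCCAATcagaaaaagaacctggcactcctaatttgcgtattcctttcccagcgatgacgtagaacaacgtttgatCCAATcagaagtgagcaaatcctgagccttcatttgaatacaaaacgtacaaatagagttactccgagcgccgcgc
H2AC1 and H2BC1: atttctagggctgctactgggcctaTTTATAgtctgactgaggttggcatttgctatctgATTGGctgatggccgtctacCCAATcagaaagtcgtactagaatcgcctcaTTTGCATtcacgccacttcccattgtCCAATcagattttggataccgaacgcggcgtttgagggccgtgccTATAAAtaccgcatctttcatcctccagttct

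The first stretch holds 1 octamer, 3 CCAAT boxes and 1 TATAAA word, the second 1 octamer, 5 CCAAT boxes and 1 TATAAA word, the third 3 CCAAT boxes alone, and the testis pair 1 octamer, 3 CCAAT boxes and 2 TATAAA words. None of them holds an RBPJ, SOX or AP-1 word, which says only that these letters are not in these windows.

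A pair of H4 promoters is shown beside them. The 200 bases before the TSS of H4C2 (chr6:26027284-26027483, minus strand), a member bound in all 6 long lists, hold a TATAAA word at -31 to -26 and no other searched word. The 200 bases before H4C14 (chr1:149832457-149832656, plus strand), which was called in none, hold no match. H4C14 stands for the chromosome 1 genes whose promoters are exact copies: its window of 2001 bases around the TSS is the same as that of H4C15 at 2001 of 2001 bases.
H4C2: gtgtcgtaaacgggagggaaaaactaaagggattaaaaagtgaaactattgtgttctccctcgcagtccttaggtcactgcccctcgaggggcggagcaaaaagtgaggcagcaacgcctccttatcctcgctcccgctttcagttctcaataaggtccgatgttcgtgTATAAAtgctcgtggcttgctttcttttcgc
H4C14: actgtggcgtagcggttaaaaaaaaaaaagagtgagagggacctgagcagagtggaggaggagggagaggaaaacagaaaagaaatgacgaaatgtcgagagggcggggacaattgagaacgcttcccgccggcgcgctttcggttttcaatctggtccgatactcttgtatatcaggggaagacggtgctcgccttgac

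An RBPJ and a SOX word lie in the same stretch at H4C5, but not next to each other, downstream of the gene (chr6:26205267-26205367, plus strand, 101 bases centred on the HA-SOX2 summit). The RBPJ word covers the bases 688 to 694 after the TSS and the SOX word 740 to 746.
H4C5: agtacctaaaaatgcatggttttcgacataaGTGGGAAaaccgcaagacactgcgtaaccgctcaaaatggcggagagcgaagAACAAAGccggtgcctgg

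RBPJ summits lay at the promoters of most clustered histone genes in 3 of the 4 RBPJ lists, and of fewer with N1-ICD. In MB157 iEV, 42 of 68 members were called (61.8%, exact binomial 95% interval 49.2 to 73.3%), beside 38.0% of all protein-coding genes. In MB157 iSOX2, 52 members were called (76.5%, 64.6 to 85.9%), beside 50.4%. In MB157R iEV the count was 44 (64.7%, 52.2 to 75.9%), and 56.1% of all genes were called, a share inside the members' interval. In MB157R iN1-ICD it was 21 (30.9%, 20.2 to 43.3%), beside 43.0% of all genes, so that the members were below the background there, just inside their interval.

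SOX2 was called at 29 members in MB157R iEV (42.6%, 30.7 to 55.2%), against 21.8% of all genes. HA-SOX2 was called at 52 members in MB157 iSOX2 (76.5%, 64.6 to 85.9%), against 34.0%. In MB157R iN1-ICD no member had a SOX2 summit, and 0 of 68 allows a share of up to 5.28% by the exact interval. That list holds 323 peaks and 0.0751% of all genes were called in it. The HA control had summits near 3 members (4.41%, 0.919 to 12.4%), against 0.0801% of all genes, and these are described with the values of the control below.

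**Figure D1:**
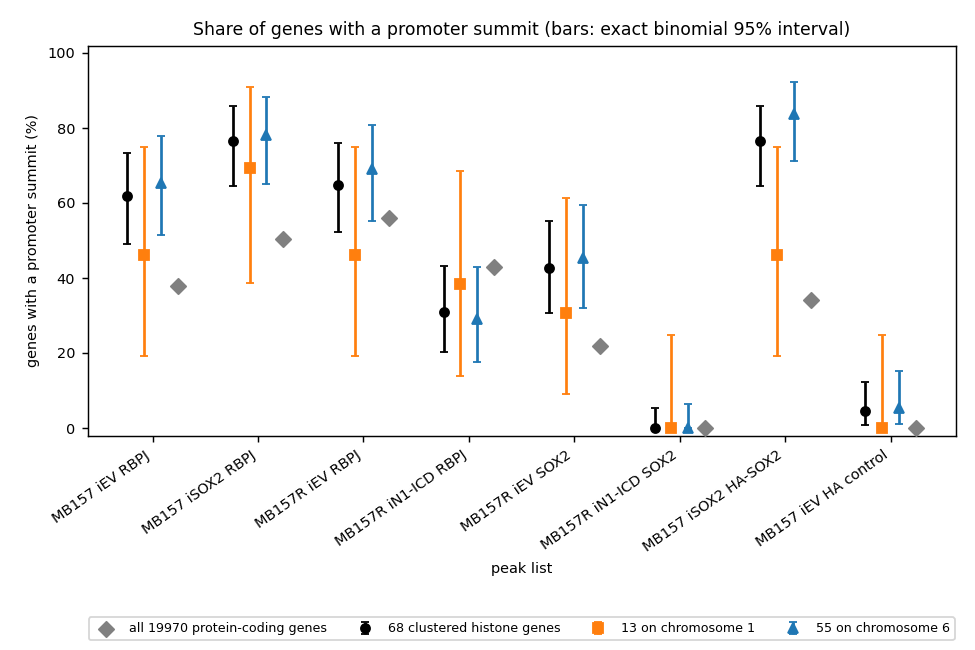
Percent of genes with a summit within 1 kb of the TSS (y axis) in each of the 8 pooled peak lists (x axis), for all 68 clustered histone genes, the 13 on chromosome 1, the 55 on chromosome 6 and all 19970 protein-coding genes; bars are exact binomial 95% intervals. The members lie above all genes for HA-SOX2 (76.5% against 34.0%) and below them for RBPJ in MB157R iN1-ICD (30.9% against 43.0%).

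Neighboring members share summits, so these intervals, which treat genes as separate, are too narrow. There were 13 head-to-head pairs with 170 to 979 bp between their TSSs (median 236 bp), 12 of them H2A with H2B. The 42 members called in MB157 iEV had 33 distinct summits within 1 kb, 12 of which were counted for 2 or more members, and the 52 called for HA-SOX2 had 47, with 13 counted more than once. Counting each summit only for the nearest TSS left 30 members in MB157 iEV (44.1%, against 33.4% of all genes) and 45 for HA-SOX2 (66.2%, against 30.1%).

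The summits were not tall. The median fold of the called members was 4.59, 4.82, 4.78 and 4.55 in the RBPJ lists, below the median of all bound promoters in each list (5.10, 4.94, 6.38 and 5.13). For SOX2 and HA-SOX2 the members' medians were 4.73 and 4.65, above those of all bound promoters (4.39 and 4.32). A fold of at least 10 was reached by 0 members in the RBPJ lists and the SOX2 list of MB157R iEV, where 1.07 to 8.57% of all genes reached it, and by 3 members for HA-SOX2 (4.41%, against 1.97% of all genes).

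The excess of members over all genes depended on how strong a peak had to be. With a −log10 q of at least 5, RBPJ was called at 25.0% of members in MB157 iEV, against 23.5% of all genes, and at 35.3% in MB157R iEV, against 48.2%, so that the direction turned there. It stayed above all genes for RBPJ in MB157 iSOX2 (55.9% against 34.4%), for SOX2 in MB157R iEV (16.2% against 11.1%) and for HA-SOX2 (60.3% against 20.9%), and below them in MB157R iN1-ICD (8.82% against 28.0%).

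Members differed in how many of the 6 long lists they were called in: 9 in all 6, 18 in 5, 10 in 4, 13 in 3, 7 in 2, 3 in 1 and 8 in none. The 8 without a summit were the testis genes H1-6, H2AC1 and H2BC1, the chromosome 1 copies H3C14, H3C15, H4C14 and H4C15, and H4C7. The RBPJ lists alone gave 15 members called in all 4 and 11 in none. In single lists 38.0, 50.4, 56.1 and 43.0% of all genes were called for RBPJ, 21.8% for SOX2 and 34.0% for HA-SOX2. Counts over several lists are not given for all genes, so those of the members cannot be read as particular to them.

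**Figure D2:**
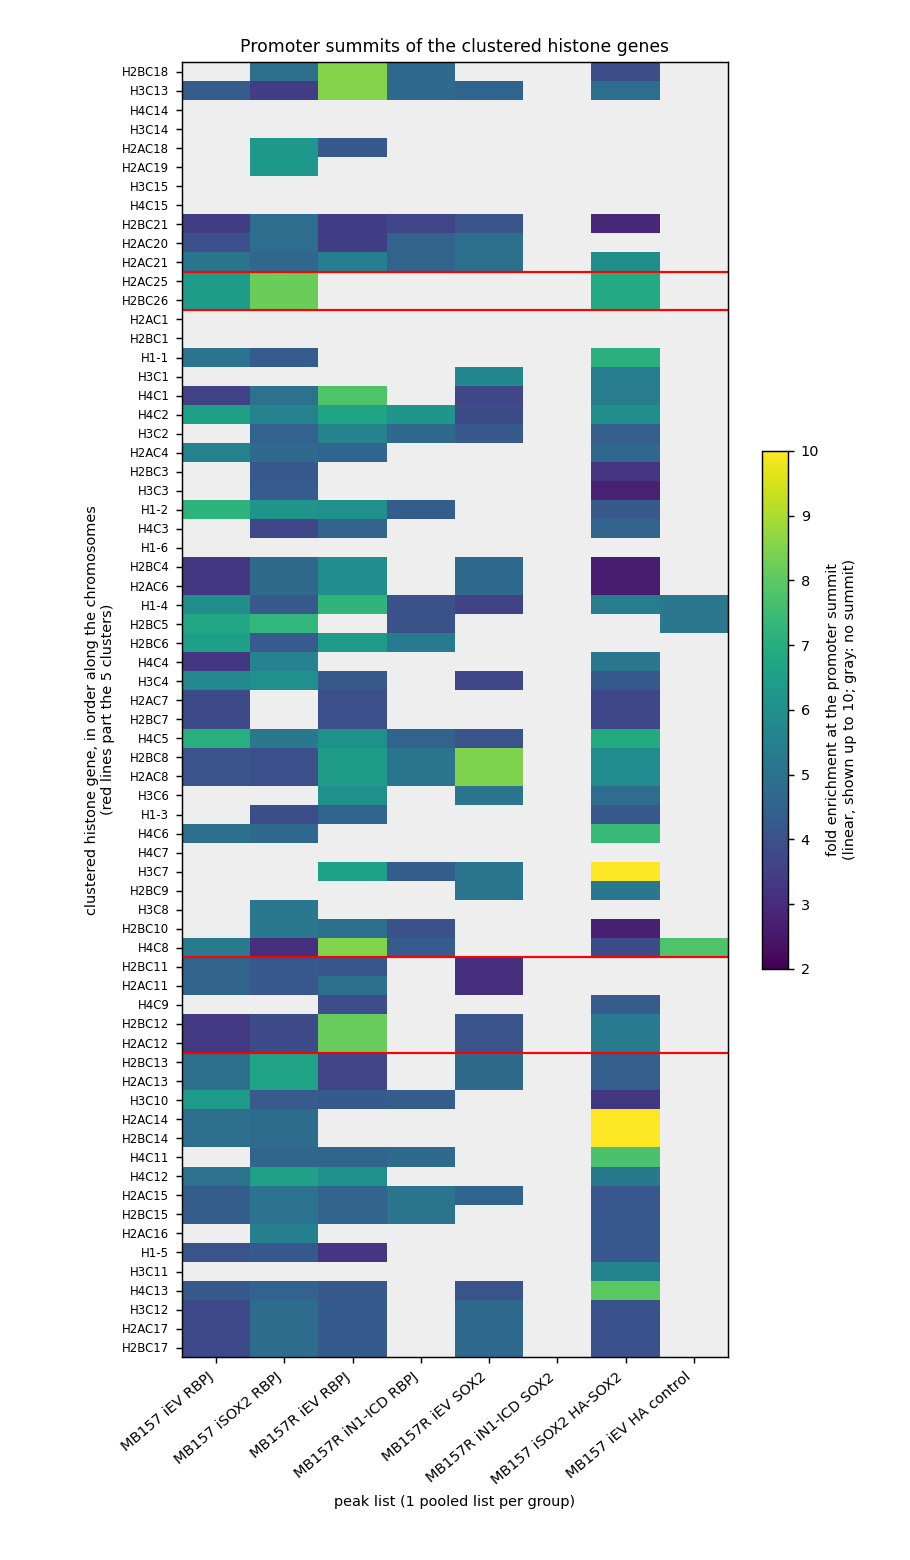
Fold enrichment at the promoter summit (color, linear, shown up to 10; gray means no summit) of each of the 68 clustered histone genes (y axis, in order along chromosomes 1 and 6, red lines part the 5 clusters) in each of the 8 peak lists (x axis). H3C7, H2AC14 and H2BC14 reach the top of the color scale for HA-SOX2 (11.8 and 17.0), and the SOX2 column of MB157R iN1-ICD is empty.

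The 9 members called in all 6 long lists include genes of every class. H4C2, an H4 gene, had RBPJ folds of 6.55, 5.57, 6.67 and 6.17, with 3.84 for SOX2 in MB157R iEV and 5.98 for HA-SOX2. Its RBPJ summits lay 478 to 754 bp after the TSS, beyond the printed promoter, while SOX2 (-28 bp) and HA-SOX2 (53 bp) summits lay at the TSS. H4C5, another H4 gene, had folds of 7.02, 5.21, 6.02 and 4.55 for RBPJ, 4.05 for SOX2 and 6.87 for HA-SOX2. Its summits fell into separate places: at -543, -72 and -141 bp for RBPJ in MB157 iEV, MB157 iSOX2 and MB157R iN1-ICD, but at 708 bp for RBPJ in MB157R iEV, 735 bp for SOX2 and 707 bp for HA-SOX2, beside the printed RBPJ and SOX words.

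H2AC8 and H2BC8 shared the summit with the highest SOX2 fold of the members in MB157R iEV. The RBPJ folds of the pair were 4.05, 3.95, 6.38 and 5.08, the SOX2 fold 8.45 and the HA-SOX2 fold 5.89. The SOX2 value rests on 24 fragments, and its interval of 5.53 to 12.4 overlaps that of RBPJ in MB157R iEV (3.86 to 10.00). The SOX2 summit lay 26 bp after the TSS of H2AC8, and the RBPJ summit of MB157R iEV lay 251 bp after that of H2BC8. In all 6 long lists the pair's summit of highest fold lay outside the printed stretch between the start sites.

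The linker histone gene H1-4 had RBPJ folds of 5.99, 4.24, 7.23 and 3.99, a SOX2 fold of 3.56 and an HA-SOX2 fold of 5.36. H2AC15 was even across the lists, with 4.37, 5.05, 4.61 and 5.08 for RBPJ, 4.57 for SOX2 and 4.18 for HA-SOX2. The remaining members of this set, H2AC21, H3C13 and H2BC21, lie on chromosome 1 and are given with that cluster.

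HA-SOX2 had the tallest summits of all lists at these genes. H2AC14 and H2BC14 shared a summit of 17.0-fold (54 fragments, interval 12.8 to 22.0), 399 bp after the TSS of H2AC14 and at -644 bp from that of H2BC14, outside the printed stretch between them. Nearest to the TSS of H2BC14 lay a second summit of 3.30-fold. The same pair had RBPJ folds of 4.88 in MB157 iEV and 4.83 in MB157 iSOX2 and was not called in any MB157R list. H3C7 had an HA-SOX2 fold of 11.8 (39 fragments, 8.46 to 16.0) at 627 bp after its TSS, a SOX2 fold of 5.07 in MB157R iEV at 623 bp, no RBPJ summit in MB157, and RBPJ folds of 6.57 (MB157R iEV) and 4.36 (MB157R iN1-ICD). The highest RBPJ fold of a member was 7.17 at H1-2 (955 bp after the TSS) in MB157 iEV, followed by H4C5 (7.02) and H2BC5 (6.75). It was 8.21 at H2AC25 and H2BC26 in MB157 iSOX2, with H2BC5 next (7.31). In MB157R iN1-ICD it was 6.17 at H4C2, with H2BC6 (5.32) and H2AC15 (5.08) next. The GENCODE start of H2BC6 lies 11702 bp from the one in RefSeq. In MB157R iEV it was 8.50 at H2BC18 and H3C13, and H4C8 (8.49 at 40 bp, interval 5.70 to 12.2) lay so close that the difference is within counting error.

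Members with a SOX2 summit mostly had an RBPJ summit as well. In MB157R iEV, 27 of 68 members had both (39.7%, 28.0 to 52.3%), against 20.3% of all genes, 17 had RBPJ alone, 2 had SOX2 alone and 22 had neither. The share with both was near that of all genes with a −log10 q of at least 5 (10.3 against 9.67%) and with summits within 250 bp (8.82 against 8.61%), and below it with lists of 25243 peaks (7.35 against 8.32%). The 2 with SOX2 alone were H3C1 (5.74-fold at -70 bp) and H2BC9 (5.07-fold). Of the members with RBPJ, 61.4% also had SOX2 (all genes 36.2%), and of those with SOX2, 93.1% also had RBPJ (all genes 93.2%). The distance between both summits had a median of 179 bp, and 21 of 27 members had them less than 500 bp apart (77.8%, against 87.5% over all genes).

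In MB157 iSOX2, 44 members had both RBPJ and HA-SOX2 (64.7%, 52.2 to 75.9%), against 27.9% of all genes. RBPJ alone, HA-SOX2 alone and neither had 8 members each. Both directions gave a share of 84.6%, while over all genes 55.4% of RBPJ promoters had HA-SOX2 and 82.1% of HA-SOX2 promoters had RBPJ. The median distance was 204 bp (198 bp over all genes), and 34 of 44 members had their summits less than 500 bp apart (77.3%, against 81.4% over all genes).

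The members on chromosome 1 were called less often than those on chromosome 6 in 5 of the 6 long lists, and in all but the SOX2 list the 2 chromosomes stood in the same order over all their genes. RBPJ was called at 6, 9, 6 and 5 of the 13 chromosome 1 members (46.2, 69.2, 46.2 and 38.5%). The counts on chromosome 6 were 36, 43, 38 and 16 of 55 (65.5, 78.2, 69.1 and 29.1%). The shares over all genes of chromosome 1 were 41.8, 51.3, 58 and 48.5%, and over those of chromosome 6 45.5, 58.9, 59.4 and 41.7%, so that the order was the other way round in MB157R iN1-ICD for members and for all genes. SOX2 was called at 4 of 13 (30.8%) and 25 of 55 members (45.5%), against 25.9 and 22.6% of all genes. HA-SOX2 was called at 6 of 13 (46.2%, 19.2 to 74.9%) and 46 of 55 members (83.6%, 71.2 to 92.2%), against 36.7 and 46.2% of all genes. With 13 genes the chromosome 1 intervals are wide, and all of them overlap those of chromosome 6.

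Chromosome 1 promoters also hold less sequence to which a read can be assigned. As a measure, the share of 60-base words (the read length) within 1 kb of the TSS that occur once in the genome was counted. It was 0 for H3C14, H3C15, H4C14 and H4C15, 12.3 and 12.4% for H2AC18 and H2AC19, 31.1% for H3C13 and 42.4% for H2BC18, while on chromosome 6 the lowest value was 80.2%. The 4 genes without a unique word had no summit in any list. Of the other 9 chromosome 1 members, 6, 9, 6 and 5 were called in the 4 RBPJ lists, 4 for SOX2 and 6 for HA-SOX2. Chromosome 1 has 3 members with at least 90% unique words, H2AC21, H2AC25 and H2BC26, of which 3, 3, 1 and 1 were called for RBPJ, 1 for SOX2 and 3 for HA-SOX2. Over both chromosomes, the 50 members with at least 90% unique words had nearly the same shares as all 68, for instance 64.0% for RBPJ in MB157 iEV and 82.0% for HA-SOX2. How much of the difference between the chromosomes follows the unique sequence was not tested.

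**Figure D3:**
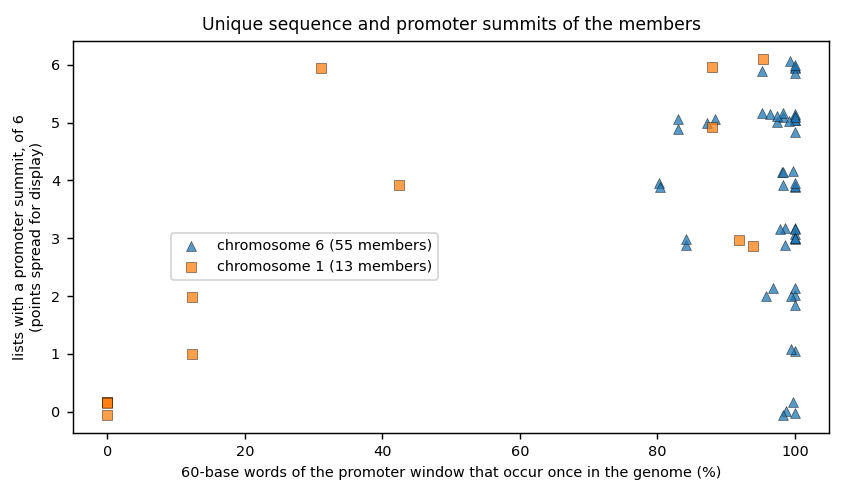
Percent of the 60-base words in each member's promoter window that occur once in the genome (x axis) against the number of the 6 long lists with a summit there (y axis, points spread for display), for chromosome 1 (squares) and chromosome 6 (triangles). The 4 chromosome 1 genes at 0% have no summit in any list, and all chromosome 6 members lie above 80%.

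Single chromosome 1 members had their own patterns. The isolated pair H2AC25 and H2BC26 was called for RBPJ in MB157 iEV (6.38-fold, 30 fragments) and MB157 iSOX2 (8.21-fold, 44 fragments) and for HA-SOX2 (6.89-fold, 40 fragments), and in none of the MB157R lists. The local input background there was 2.41, 2.20 and 2.21 times the genome background of the same lists, against a median of 1.24 to 1.38 over all summits. H2BC18 was not called in MB157 iEV and had RBPJ folds of 4.97, 8.50 and 4.72 in the other RBPJ lists and 3.92 for HA-SOX2. The 8.50-fold summit of MB157R iEV lay at -922 bp, and the one nearest to its TSS had 4.43. H3C13, which shares the 8.50-fold summit, had 4.37, 3.47, 8.50 and 4.72 for RBPJ, 4.57 for SOX2 and 4.90 for HA-SOX2.

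H2AC18 and H2AC19 had RBPJ folds of 6.27 and 6.26 in MB157 iSOX2, and H2AC18 had 4.22 in MB157R iEV. These genes are near-identical copies, so that their reads may be split between them, and their values are uncertain. H2AC21 had RBPJ folds of 5.11, 4.69, 5.46 and 4.53, a SOX2 fold of 4.95 and an HA-SOX2 fold of 5.97. Its summits are shared with the neighboring gene BOLA1, which has the same folds in all 6 lists. H2AC20 had 3.96, 4.86, 3.47 and 4.53 for RBPJ, 4.95 for SOX2 and no HA-SOX2 summit, and its head-to-head partner H2BC21 had 3.50, 4.86, 3.47 and 3.68 for RBPJ, 4.09 for SOX2 and 2.91 for HA-SOX2.

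By position the members form 5 clusters (runs with gaps of at most 500 kb): 11 genes over 75.6 kb and the isolated pair on chromosome 1, and 34 genes over 559 kb, 5 over 14.3 kb and 16 over 85.5 kb on chromosome 6. Of the summits inside the 559 kb cluster, 63.9 to 81.5% lay at member promoters for RBPJ and 76.5% for SOX2, against 25 of 76 (32.9%) for HA-SOX2. In the 85.5 kb cluster, 21 HA-SOX2 summits were called, 14 of them at member promoters (66.7%), and HA-SOX2 reached all 16 genes (46.2% of all chromosome 6 genes). How many summits of each list lie at promoters over the whole genome was not counted. The shares of summits at member promoters therefore cannot be read as particular to these clusters. The 14.3 kb cluster had 4, 4 and 5 of its 5 genes called in the first 3 RBPJ lists, and 0 in that of MB157R iN1-ICD, where the shares of all chromosome 6 genes were 45.5, 58.9, 59.4 and 41.7%. The local input background at the summits inside the 559 kb and 85.5 kb clusters had medians of 1.00 to 1.47 times the genome background. In the 75.6 kb cluster on chromosome 1 they were 1.74, 1.81, 1.82 and 1.27 for RBPJ, 1.82 for SOX2 and 2.17 for HA-SOX2.

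Fewer members were called for RBPJ in MB157R with N1-ICD than with the empty vector. Of the 44 called with the empty vector, 20 were also called with N1-ICD (45.5%, against 72.1% over all genes), 24 were called without it only (15.6% of all genes) and 1 with it only (2.53%). On chromosome 1, 5 of 6 members were called in both, and on chromosome 6, 15 of 38 (39.5%). The share called over all genes also fell more on chromosome 6 (59.4% with the empty vector, 41.7% with N1-ICD) than on chromosome 1 (58 and 48.5%). How much of the difference between the members of both chromosomes follows this was not tested. The highest folds among the 24 were 8.15 at H2AC12 and H2BC12 and 7.79 at H4C1. The 1 called with N1-ICD only was H2BC5 (3.99-fold, 10 fragments). The lowest fold called at a member was 3.28 with the empty vector and 3.68 with N1-ICD, and the median fragments at the members' summits were 15 and 12. With lists shortened to 25243 peaks each, 10 of 68 members were called with the empty vector only (14.2% of all genes) and 4 with N1-ICD only (4.14% of all genes), so that the members then stood near all genes.

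SOX2 was called at 29 members in MB157R iEV and at none of them in MB157R iN1-ICD, where 21.7% of all genes were called with the empty vector only and 0.0% with N1-ICD only. The highest SOX2 folds concerned were 8.45 at H2AC8 and H2BC8 and 5.74 at H3C1.

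In MB157, 40 of the 42 members called for RBPJ with the empty vector were also called with iSOX2 (95.2%, against 90.5% over all genes). H2AC7 and H2BC7 (3.83-fold) were called with the empty vector only (3.59% of all genes), and 12 members with iSOX2 only (16.0% of all genes), led by H2AC18 (6.27), H2AC19 (6.26) and H2AC16 (5.47).

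Between MB157 iEV and MB157R iEV, 34 members were called for RBPJ in both (81.0% of those in MB157, against 88.0% over all genes). The 8 called in MB157 only (4.57% of all genes) included H2BC5 (6.75) and H2AC25 with H2BC26 (6.38), and the 10 in MB157R only (22.7% of all genes) included H2BC18 (8.50), H3C7 (6.57) and H3C6 (6.02). The lists differ in length, and with lists shortened to 25243 peaks each the counts were 26 in MB157 only (9.96% of all genes) and 4 in MB157R only (14.2% of all genes).

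HA-SOX2 in MB157 iSOX2 covered most of the members that had SOX2 in MB157R iEV: 26 of 29 (89.7%, against 70.3% over all genes). The 3 with SOX2 only (6.47% of all genes) were H2AC20 (4.95), H2BC11 and H2AC11 (3.07), and the 26 with HA-SOX2 only (18.7% of all genes) were led by H2AC14 and H2BC14 (17.0) and H4C11 (7.71). The HA-SOX2 list held 108203 peaks and the SOX2 list 37963. With lists of equal length far fewer members were called for HA-SOX2, so these counts hold for the full lists only.

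By class, RBPJ was called in MB157 iEV at 4 of 6 H1, 13 of 17 H2A, 13 of 18 H2B, 4 of 13 H3 and 8 of 14 H4 genes. The share of all genes was 38.0% in that list and 50.4, 56.1 and 43.0% in the other RBPJ lists, 21.8% for SOX2 and 34.0% for HA-SOX2. H3 genes were called at 7 for RBPJ in MB157 iSOX2 and in MB157R iEV, 7 for SOX2 and 10 for HA-SOX2. In MB157R iN1-ICD the RBPJ counts were 2, 4, 7, 4 and 4 in the same order of classes. SOX2 in MB157R iEV was called at 1 H1, 9 H2A, 8 H2B, 7 H3 and 4 H4 genes, and HA-SOX2 at 5, 12, 14, 10 and 11. H1-6, the testis linker histone, was called in no list, so that no list held all 6 H1 genes. The H3 genes H3C14 and H3C15 and the H4 genes H4C14 and H4C15 hold no unique word and had no summit in any list. A summit shared by a head-to-head pair counts for both genes, which mostly concerns H2A and H2B. The classes can therefore not be compared directly.

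The median distance to the TSS was shorter for summits of H4 genes than for those of H2A genes in the 6 long lists, but by little in MB157R iN1-ICD (RBPJ) and MB157R iEV (SOX2). For RBPJ in MB157 iEV the median distance was 72 bp, and 6 of 8 summits were within 250 bp; in MB157 iSOX2 it was 115 bp (8 of 10) and in MB157R iEV 132 bp (7 of 9). For H2A genes the medians in these lists were 377, 401 and 687.5 bp. In MB157R iN1-ICD both classes had 3 of 4 summits within 250 bp, with medians of 165 bp for H4 and 179.5 bp for H2A. H3 genes had a median of 141 bp in MB157 iEV (3 of 4 within 250 bp), and 265, 344 and 316.5 bp in the other RBPJ lists. Their medians were 70 bp for SOX2 and 319.5 bp for HA-SOX2. For HA-SOX2 the medians were 113 bp at H4 genes (8 of 11 within 250 bp) and 368 bp at H2A genes. Over all genes the medians were 294, 285, 205 and 242 bp for RBPJ, 217 bp for SOX2 and 300 bp for HA-SOX2. A summit shared by a head-to-head pair is counted for both genes, also where it lies nearer to the partner of an H2A gene. For SOX2 in MB157R iEV the medians were close, at 310.5 bp over 4 H4 genes and 350.0 bp over 9 H2A genes.

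**Figure D4:**
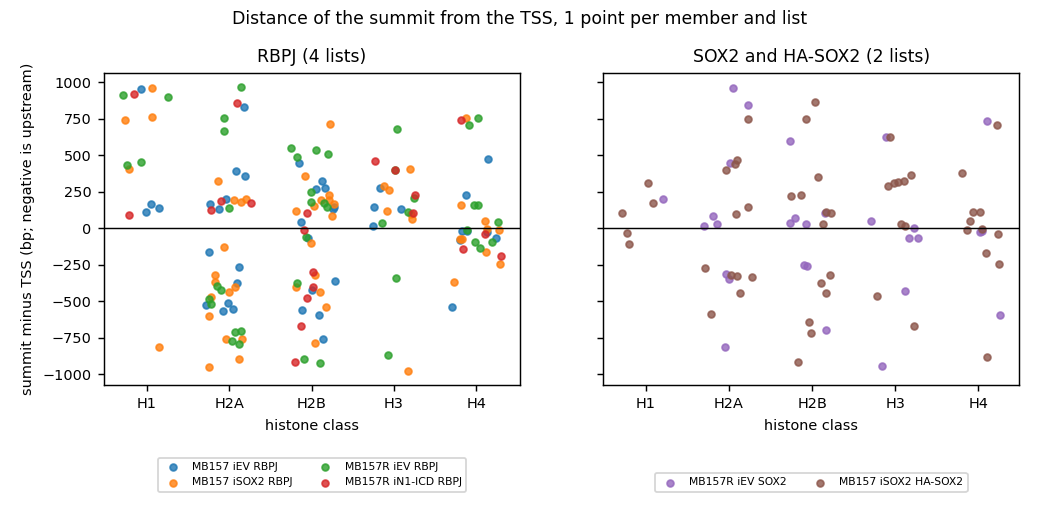
Distance of the promoter summit of highest fold from the TSS in bp (y axis, negative is upstream) by histone class (x axis), 1 point per member and list, for the 4 RBPJ lists (left) and for SOX2 and HA-SOX2 (right). RBPJ points of H4 genes lie nearer to the TSS than those of H2A genes in MB157 iEV (median distance 72 and 377 bp) and little nearer in MB157R iN1-ICD (165 and 179.5 bp).

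The members' promoters were rich in the octamer, CCAAT and TATAAA words, while words for RBPJ and SOX2 were about as frequent as in other promoters. In the window of 250 bases before to 50 after the TSS, 6 of 68 members held an RBPJ word (8.82%, against 9.99% of all 19970 promoters) and 6 a SOX word (8.82%, against 7.09%). The octamer was found in 26 members (38.2%, against 4.10%), 12 of 17 H2A, 13 of 18 H2B and 0 of 14 H4 genes. CCAAT was found in 59 (86.8%, against 35.9%) and in 6 of the 14 H4 genes, and TATAAA in 45 (66.2%, against 10.8%). AP-1 words were found in 0 of 68 members (up to 5.28% by the exact interval, against 3.99%), and AAGGGTG, the RBPJ word reversed and searched as a control, in 1 (1.47%, against 4.37%). Pairs that share a promoter are counted for both genes. The median GC content of the window was 44.3% in members and 60.3% over all genes.

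Around the summits the RBPJ word was found at a smaller share of members than of other promoters, in counts so small that the intervals include the share of all promoters in 3 of the 4 RBPJ lists. Within 100 bases of the members' summits, it was found at 1 of 31 RBPJ summits in MB157 iEV (3.23%, against 18.4% of the RBPJ summits at all promoters), 2 of 40 in MB157 iSOX2 (5.00%, against 16.3%), 2 of 34 in MB157R iEV (5.88%, against 13.5%) and 0 of 17 in MB157R iN1-ICD (against 16.5%). The SOX word was found at 2 of 21 SOX2 summits (9.52%, against 12.5%) and 7 of 41 HA-SOX2 summits (17.1%, against 13.4%). Windows that overlap between lists are counted in each. The RBPJ summits with the word were those of H2AC18, H3C4 and H4C5.

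HA-SOX2 summits with a SOX word within 100 bases were those of H2AC14 and H2BC14, the tallest (-55 bp from the summit), and of H2AC12 and H2BC12, H2AC15 and H2BC15, H2AC21, H3C11, H1-5 and H4C5. The 6 promoters with a SOX word, H3C1, H4C3, H1-3, H4C9, H1-5 and H3C11, were all called for HA-SOX2, against 46 of the other 62 members, and 1 of them, H3C1, was called for SOX2 in MB157R iEV. Over all genes, promoters with and without the word were called for HA-SOX2 at 36.4 and 33.8%. These counts were taken after the calls were known and carry no test.

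**Figure D5:**
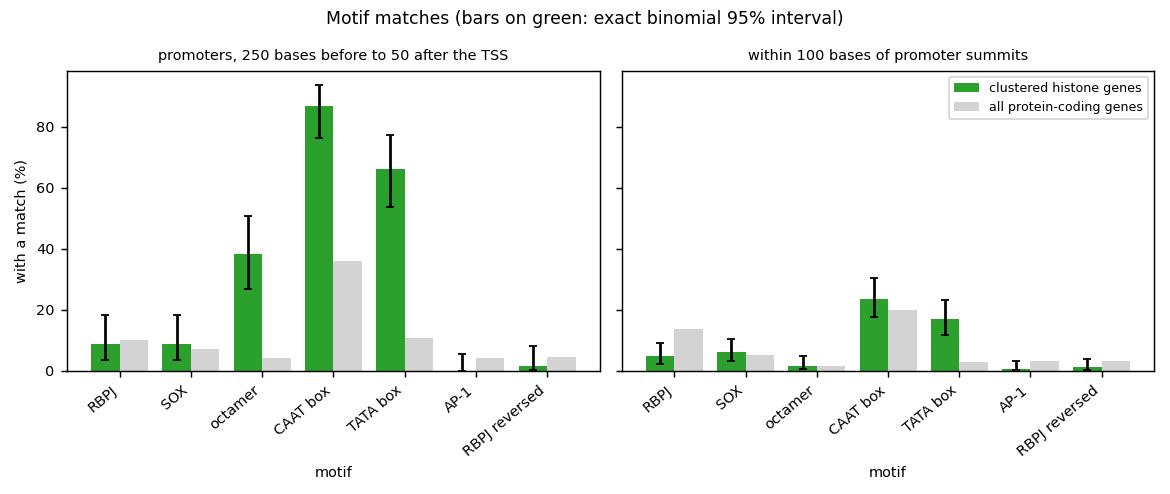
Percent of windows with a motif match (y axis) for 7 motifs (x axis), in promoters from 250 bases before to 50 after the TSS (left) and within 100 bases of promoter summits pooled over the 6 long lists (right), for clustered histone genes (green, with exact binomial 95% intervals) and all protein-coding genes (gray). The octamer, CAAT box and TATA box stand out in the promoters (38.2, 86.8 and 66.2%), and near the summits the RBPJ word is found at 4.92% of the members' and 13.8% of all summits. The pooled summits are those of RBPJ, SOX2 and HA-SOX2 together. Nearby summits of different lists count separately, so the intervals on the right are too narrow.

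The HA control had summits at 2 places near members. At 26157295 on chromosome 6 a summit (5.17-fold, 7 fragments) lay 966 bp after the TSS of H1-4 and at -827 bp from that of H2BC5, and RBPJ summits lay 65, 37 and 159 bp from it (6.75-fold in MB157 iEV, 7.31-fold in MB157 iSOX2 and 3.99-fold in MB157R iN1-ICD). At 26286539 a summit (7.80-fold, 11 fragments) lay inside the tRNA gene TRX-CAT1-2, at -901 bp from the TSS of H4C8. Of the 77 control summits, 45 lay within 500 bp of a tRNA gene, and of the members' promoter summits of highest fold in the other lists, 0 did. Only 1 member, H4C8, has a tRNA gene within 1 kb of its TSS. Few of the members' summits could therefore lie near a tRNA gene, and these counts cannot be compared. Leaving out every summit within 500 bp of a control summit or tRNA gene removed 1 member in MB157 iEV and in MB157 iSOX2 for RBPJ (41 and 51 left) and none in the other lists. The control is 1 library with a genome background of 0.524 fragments, against 1.60 to 2.24 in the 6 long lists. It could miss weak unspecific signal, so this step cannot show how much of it the other lists hold.

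Other histone genes lie outside the clusters, among them those for replication-independent histones, which are made outside S phase too, and the single H4 gene H4C16. Of 12 such genes, 8, 9, 9 and 7 were called for RBPJ, 5 for SOX2 and 8 for HA-SOX2. The RBPJ shares were 66.7, 75.0, 75.0 and 58.3%, against 38.0, 50.4, 56.1 and 43.0% of all genes. For SOX2 the share was 41.7%, against 21.8%, and for HA-SOX2 66.7%, against 34.0%. The exact intervals included the share of all genes in every list but that of HA-SOX2 (34.9 to 90.1%). H2AZ1 had RBPJ folds of 11.7, 6.38, 9.85 and 8.79, above every member in MB157 iEV, MB157R iEV and MB157R iN1-ICD, and an HA-SOX2 fold of 2.96. H4C16 had 5.05 for RBPJ in MB157 iSOX2, 6.42 for SOX2 and 4.38 for HA-SOX2.

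Of 15 genes for factors of histone gene transcription and mRNA processing, 10, 12, 15 and 10 were called for RBPJ, 3 for SOX2 and 7 for HA-SOX2. The RBPJ shares were 66.7, 80.0, 100 and 66.7%, against 38.0, 50.4, 56.1 and 43.0% of all genes. For SOX2 the share was 20.0%, against 21.8%, and for HA-SOX2 46.7%, against 34.0%. The exact intervals for RBPJ in MB157R iN1-ICD, for SOX2 and for HA-SOX2 included the share of all genes, and that for MB157 iEV began at 38.4%. SLBP, which binds the stem-loop of the members' mRNAs, had RBPJ folds of 19.2, 17.1, 41.1 and 32.3 (49 to 166 fragments) at -543 to -528 bp and no SOX2 or HA-SOX2 summit. NPAT had RBPJ folds of 4.31, 4.28, 8.07 and 4.24, 4.27 for SOX2 and 5.12 for HA-SOX2. POU2F1, the gene of OCT1, had no RBPJ summit in MB157 iEV, 4.38, 8.11 and 4.49 in the others, 15.0 for SOX2 and 4.28 for HA-SOX2, and HINFP had 4.90, none, 6.36 and 4.05 for RBPJ and 3.02 for HA-SOX2. The RBPJ folds at SLBP lay above those of every member in each list.

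Inside the clusters lie 8 other protein-coding genes. BOLA1 and the unnamed gene ENSG00000282988, whose TSS is that of H2AC7, share summits with members. Of the 6 that are over 2 kb from a member, HFE was called for RBPJ in all 4 lists (6.28, 4.61, 4.25 and 3.99) and for HA-SOX2 (3.08), TRIM38 for HA-SOX2 alone (9.03), and the 4 transporter genes SLC17A1 to SLC17A4 in no list.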

How the data were processed

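Peaks came from ChIP-seq of RBPJ, SOX2 and HA in 8 groups. The authors mapped the paired-end reads to hg38 (BWA), pooled the libraries of each group and called narrow peaks against inputs with MACS2, at a false discovery rate of 0.05. The deposited lists give the position of each peak and summit, the authors' fold enrichment at the summit (a ratio to the local input background), and the deposited −log10 p and −log10 q. A whole-number score was not used, and 0 columns belonged to other samples.

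No counts of reads per library were used. Fold and −log10 p together gave the fragments and background at a summit, for 99.7 to 100% of the peaks of each list. Genes and TSSs came from GENCODE 44, and a summit was given to every gene with a TSS within 1 kb. Where a gene had several summits, the one of highest fold was used. Shares have exact binomial (Clopper-Pearson) and fragments exact Poisson 95% intervals, which cover counting error only. Uniqueness used 1942 words of 60 bases per window. Promoter sequence was read from hg38, and RefSeq gave 67 of 68 members a TSS, the same in 57 and over 500 bp away in 3 (H2BC6, H3C4, H3C6).

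The members, motifs and gene lists were chosen with earlier results of these data known. Named were, per list, the 3 members of highest fold, all chromosome 1 members, those called in all 6 long lists (at most 10), the 3 of highest fold called in 1 list of a pair only, those in the HA control, the testis genes and the listed comparison genes (H4C16 is listed there under its other symbol, H4-16). Other names in the text were chosen after their values were seen. The assignment of summits to promoters, the recovery of fragments, the count of unique words and the motif search were tested on simulated data. Alternatives were other distances, a stricter q, lists of equal length, other start sites, unique promoters, and 1 gene per summit. Scripts ran on Python 3.11.15 with scipy 1.17.1, numpy 2.4.6, numba 0.67.0, pandas 2.3.3 and matplotlib 3.10.9.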

Additional observations from a re-analysis of the deposited data

How the results depend on the processing

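No paired analysis was possible because peaks had been called on pooled libraries, so that the lists carry no replicate numbers, and no replicate could be left out. Of 312 recomputed values over 57 results and 13 alternatives, 212 moved by less than the counting interval of the main value (counts by less than 1.5 times) and 100 by more. Starts of every transcript, RefSeq starts and leaving out summits near the HA control or tRNA genes (the last pair, and members with some unique words, chosen after seeing the data) moved none of the shares over all members. With starts of every transcript, RBPJ in MB157R iEV was however just below all genes (64.7% against 65.2%). The cause of a shift was not tested, except where the setting itself lowers the number of summits that can count.

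Shares are given for the 4 RBPJ lists in the order of the report, then SOX2 in MB157R iEV, then HA-SOX2. The share of all genes also changes with the setting. Where it is not printed for a share or a count of members, that value describes the setting only and cannot be read as particular to the members. With a −log10 q of at least 5 they were 25.0, 55.9, 35.3, 8.82, 16.2 and 60.3% over all members, and 25.5, 54.5, 34.5, 10.9, 14.5 and 65.5% on chromosome 6. On chromosome 1, RBPJ in MB157R iN1-ICD came to 0%. Both factors were at 10.3% of members in MB157R iEV (9.67% of all genes) and 36.8% in MB157 iSOX2 (13.5%). Members called for RBPJ in 1 list only numbered 24 in MB157 iSOX2 and not iEV, 17 in MB157R iEV and not MB157 iEV, and 2 in MB157R iN1-ICD and not iEV.

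With lists of 25243 peaks, the shares of all members were 29.4% for RBPJ in MB157R iEV (42.2% of all genes), 16.2% for SOX2 and 4.41% for HA-SOX2 (1.92% of all genes), and on chromosome 6 30.9, 14.5 and 5.45%. HA-SOX2 on chromosome 1 came to 0%. Both factors were at 7.35% in MB157R iEV, then below all genes (8.32%), and 2.94% in MB157 iSOX2 (1.24%). RBPJ was called at 26 members in MB157 iEV only and 4 in MB157R iEV only, and at 10 in MB157R with the empty vector only and 4 with N1-ICD only, with the shares of all genes given in the report.

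With summits within 500 bp, RBPJ came to 55.9% in MB157 iSOX2 and 45.6% in MB157R iEV (46.4% of all genes), on chromosome 6 to 60 and 49.1%, and on chromosome 1 to 38.5% in MB157 iSOX2. HA-SOX2 on chromosome 6 came to 70.9%, and the HA control to 0% of all and of chromosome 6 members. Both factors were at 23.5% in MB157R iEV and 45.6% in MB157 iSOX2. Members in 1 list only numbered 7 (MB157 iEV, not iSOX2), 15 (MB157 iEV, not MB157R iEV) and 4 (MB157R iN1-ICD, not iEV).

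Within 250 bp, the 6 shares were 30.9, 35.3, 29.4, 17.6, 22.1 and 30.9%, and the HA control 0%. On chromosome 6, RBPJ came to 30.9, 36.4 and 32.7% in the first 3 lists, SOX2 to 21.8%, HA-SOX2 to 32.7% and the HA control to 0%, and on chromosome 1 RBPJ to 30.8% in MB157 iSOX2 and 15.4% in MB157R iEV. RBPJ in MB157R iEV was then below all genes (29.4% against 32.8%). Both factors were at 8.82% in MB157R iEV (8.61% of all genes) and 16.2% in MB157 iSOX2 (7.97%), and 9, 13, 11 and 3 members were called in MB157 iEV and not iSOX2, MB157 iEV and not MB157R iEV, MB157R iEV and not iN1-ICD, and the reverse of the last.

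Where the peak had to cover the TSS, the 6 shares were 25.0, 42.6, 44.1, 10.3, 27.9 and 54.4%, on chromosome 6 25.5, 43.6, 45.5, 9.09, 27.3 and 56.4%, and the HA control 0% in both. RBPJ in MB157 iSOX2 on chromosome 1 came to 38.5%. Both factors were at 19.1% in MB157R iEV and 32.4% in MB157 iSOX2, and 4 members were called in MB157 iEV and not iSOX2, 23 in MB157R iEV and not MB157 iEV, and 0 in MB157R iN1-ICD and not iEV. RBPJ in MB157R iEV was just below all genes (44.1% against 44.9%).

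Given to the nearest TSS only, RBPJ in MB157 iEV came to 44.1% (47.3% on chromosome 6), both factors to 20.6% in MB157R iEV and 51.5% in MB157 iSOX2, and 17 members were called in MB157R iEV and not MB157 iEV and 2 in MB157R iN1-ICD and not iEV. With unique promoters, chromosome 1 came to 100% for RBPJ in MB157 iEV and MB157 iSOX2 and for HA-SOX2 (3 members), and with some unique words to 100% for RBPJ in MB157 iSOX2. Within 100 bases of summits in place of promoters, the octamer came to 1.64%, CCAAT to 23.5% and TATAAA to 16.9%.

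Few fragments lie behind each summit, so that a member called in 1 list and not in another is a difference between calls, not a measured difference in binding.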
